A study of Mus musculus with 2 samples.

Results

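C1q cells are the cells of the mouse submandibular gland whose RNA for the complement proteins C1qa, C1qb and C1qc summed to at least 3 UMIs. A UMI is a sequence tag that marks 1 captured RNA molecule. The cells also had to hold fewer than 10 UMIs of the neutrophil genes S100a8 and S100a9 together, at least 200 detected genes and under 20% mitochondrial UMIs. In all, 331 of 4086 kept cells met this definition: 95 of 1663 in the wild-type library and 236 of 2423 in the KO library. Measured C1q and S100a8/9 counts chose the cells, so those values are given only as a description. The S100a8/9 limit removed no cell, since no kept cell with 3 C1q UMIs reached it, and 94 of the 95 and 233 of the 236 cells held none.

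C1q is the recognition unit of the classical complement pathway, and in most tissues resident macrophages make it rather than the liver. Its A, B and C chains assemble into a bouquet-shaped protein that binds antibody complexes and dying cells and marks them for uptake. In salivary glands, macrophages lie between acini and ducts, where they clear debris, present antigen on MHC class II and release chemokines that draw in other leukocytes.

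The glands came from adult mice, 12 weeks of age, and were dissociated whole and run on a droplet platform that counts the 3' ends of transcripts. There was 1 library of a p63 WildType mouse and 1 of a p63 KO mouse. Trp63 encodes p63, which basal cells of epithelia use as a transcription regulator. The labels name the source as epithelial progenitor cells although the protocol describes the whole gland, and they state neither the allele, the driver or the time of the p63 deletion nor whether glands of several animals were pooled. With 1 library per genotype no test was possible: genotype and library cannot be told apart, cells are not replicates, and every interval covers counting error only.

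The libraries differed in depth and in makeup. The median wild-type kept cell held 3406 UMIs and the median KO one 2088, while C1q cells had medians of 2600 (2183 to 45764) and 1593.5 (1085 to 19202). C1q cells had medians of 994 and 682.5 genes and of 4.54% and 4.86% mitochondrial UMIs. The summed profile of wild-type C1q cells held 353151 UMIs and that of KO cells 436310. Saliva protein genes took 16.9% and 4.12% of these sums, and the medians per cell were 1.85% and 0.701%. Above 10000 UMIs lay 3 wild-type cells, with 77686 UMIs together, and 1 KO cell. The libraries shared 7 barcode strings among kept cells and 0 among C1q cells. No doublet caller was run.

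The C1q count per cell had a different shape in each library. Wild-type C1q cells held a median of 24 C1q UMIs (3 to 71) and KO cells 8 (3 to 59), which is a median of 0.876% and 0.535% of a cell's UMIs. In the wild-type library 57 cells held 20 or more and only 5 held 5 to 9, whereas in the KO library 95 cells held 5 to 9 and 27 held 20 or more. Just inside the limit were 12 wild-type and 18 KO cells with 3 UMIs, and just outside it 36 and 16 cells with 2. Tyrobp, which encodes the signalling adaptor DAP12 of myeloid and NK cells, was not used in the choice. It was found in 58.3% of wild-type cells with 3 C1q UMIs and in 25% of those with 2, against 98.7% of those with 10 or more. In the KO library these shares were 72.2%, 56.3% and 92.3%. Cells near the limit therefore held Tyrobp less often than the cells far above it, and in the wild-type library 12 of the 16 cells with 3 or 4 C1q UMIs also carried at least 3 epithelial keratin and Epcam UMIs.

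**Figure D1:**
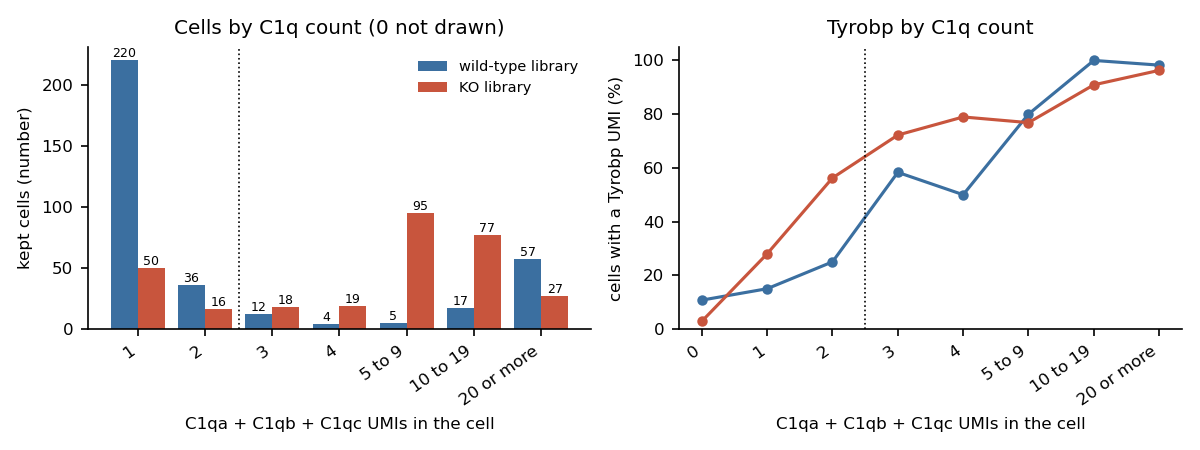
Left, number of kept cells at each summed C1q UMI count (cells with 0 are not drawn), wild-type library in blue and KO library in red. Right, percent of the cells at each count with a Tyrobp UMI. Dotted lines mark the limit of 3 UMIs: wild-type cells fall into a group with 1 or 2 UMIs (220 and 36 cells) and a group with 20 or more (57 cells), while most KO cells lie between 5 and 19 (95 and 77 cells).

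Genes that took no part in the choice were then set against the macrophage label. Csf1r, the receptor for the macrophage growth factor CSF1, had 98 UMIs in 55 of 95 wild-type cells (57.9%) and 136 UMIs in 102 of 236 KO cells (43.2%), against 0.659% and 0.187% of epithelial cells. After each cell was thinned at random to 1000 UMIs the shares were 29.5% and 30.9%, against 0.220% and 0% of epithelial cells. Adgre1, which encodes the macrophage antigen F4/80, was detected in 36 wild-type C1q cells (37.9%) and 31 KO C1q cells (13.1%). Thinning left 21.1% (13.4 to 30.6%) and 8.90% (5.59 to 13.3%). A UMI of either gene was present in 65 wild-type and 121 KO cells. Against the other kept cells of the same library, Cd68, a lysosomal glycoprotein of macrophages, was higher in C1q cells by 4.17 and 4.38 on the log2 scale, and Csf1r, Ms4a7, Ctss and Tyrobp were higher in both libraries as well. Adgre1 and Aif1 passed the size rule explained below in the wild-type library alone, and Fcgr1, Mrc1 and Cx3cr1 in neither. These 5 genes had too few UMIs for a call in at least 1 library. In the KO library Adgre1 (39 UMIs in C1q cells) and Aif1 (14 UMIs) had log2 ratios of 3.16 and 2.07. Of 14 macrophage markers, 9 had enough UMIs in both libraries, and all 9 were higher in both. These 9 include the C1q genes, which chose the cells. The summed levels of the C1q genes, which the choice used, were 2280 CPM (the count scaled to 1000000 UMIs of the C1q-cell total) in wild-type and 1866 CPM in KO cells for C1qa, 2478 and 2388 CPM for C1qb, and 1617 and 1618 CPM for C1qc. Without cells that held epithelial markers the KO over wild-type log2 ratios of these genes were −0.98, −0.72 and −0.63.

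Markers of other cell types were looked for in the same cells. All 6 mast cell markers had 0 UMIs in both libraries. The 10 neutrophil markers summed to 6 wild-type and 19 KO UMIs, with Camp, Cxcr2, Ngp and Retnlg at 0 in both, and no cell held more than 2. Monocyte markers summed to 42 and 23 UMIs, 33 of the 42 in 1 cell, with Chil3 and Vcan at 0 in both, and dendritic cell markers to 16 and 14, with Clec9a, Xcr1, Cd209a and Zbtb46 at 0. T cell markers summed to 2 and 0. The NK set summed to 475 and 1003 UMIs, of which Ccl5, a chemokine that myeloid cells also make, gave 455 and 994. Fibroblast markers summed to 97 and 3 UMIs, basal duct markers to 76 and 1 and myoepithelial markers to 46 and 0. Single wild-type cells held 39, 23 and 40 of these UMIs, and 4, 5 and 1 of the 95 wild-type cells held at least 3. B and plasma cell markers summed to 375 and 1 UMIs, of which 1 wild-type cell held 372, and endothelial markers to 34 and 31. RNA of gland epithelium and red cells was more widespread. Acinar markers summed to 46225 and 12958 UMIs (130893 and 29699 CPM), with 25735 and 11097 of them in 1 cell of each library. Granular tubule markers summed to 5683 and 3396 UMIs, luminal duct markers to 1983 and 857, and red cell markers to 8152 and 10376 (23084 and 23781 CPM). The part of this RNA in the results was not tested. At least 3 epithelial UMIs were held by 41 wild-type and 23 KO cells. Calls and list counts between the libraries were also made without those cells, which leaves 54 wild-type and 213 KO cells.

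C1q cells made up 5.71% (95% exact binomial interval 4.65 to 6.94%) of kept wild-type cells and 9.74% (8.59 to 11.0%) of kept KO cells. The deposited barcodes began at 2175 UMIs in the wild-type and at 1076 UMIs in the KO library. The upper quartile of KO C1q cells, 1941.5 UMIs, lay below the smallest wild-type C1q cell, with 2183. No definition used here set a common UMI minimum for both libraries, so the part of this difference in the shares was not tested. The share in the KO library depended on the limits. With at least 10 C1q UMIs the shares were 4.45% and 4.29%, and without the barcode filter, which kept 1663 of 1970 wild-type and 2423 of 4726 KO barcodes, they were 5.33% and 5.21%. Without cells that held epithelial markers they were 3.25% and 8.79%. The order of the libraries was not kept across these definitions. After thinning, 8.72% and 11.1% of kept cells held at least 1 C1q UMI.

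In each library, C1q cells were set against all other kept cells of that library. A gene was called when it had at least 50 UMIs over both sides and its ratio had a 95% interval wholly beyond 2-fold. Of 7571 genes with enough UMIs in both libraries, 190 (2.51%) were higher in C1q cells in each library and 28 (0.37%) lower in each. Among the higher genes, on a log2 scale with 10 CPM added, were Ctss, the cathepsin that trims the class II invariant chain (6.09 wild-type, 6.63 KO), and Cd74, that invariant chain (6.07 and 6.17). H2-Eb1 (5.88 and 5.58), H2-Aa (5.80 and 5.84) and H2-Ab1 (5.73 and 5.67), which encode class II chains, were higher too. The chemokine genes Ccl4 (6.60 and 6.58), Ccl3 (6.35 and 6.14) and Cxcl2 (5.60 and 5.56) were on the same side. Ms4a7 (4.89 and 4.95), Csf1r (4.58 and 4.78), Tyrobp (4.54 and 5.32), Fcer1g, the Fc receptor gamma chain (4.40 and 4.98), and Apoe, which encodes a lipid carrier (4.42 and 5.03), were higher in both libraries as well. By list, 6 of 6 class II genes, 12 of 13 chemokine and cytokine genes and 16 of 24 lysosome genes were higher in both libraries, and 1 of 26 immediate early and heat shock genes was.

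Neighbouring leukocytes showed which of these genes were shared. Against NK cells of the same library (35 wild-type and 32 KO cells, chosen by Nkg7, granzyme and killer receptor UMIs), 83 of 1005 genes were higher and 22 lower among wild-type cells, and 179 of 1109 higher and 91 lower among KO cells. Apoe was higher in C1q cells by 5.35 and 8.89 on the log2 scale, whereas Tyrobp (0.27 and 1.21) and Fcer1g (0.11 and 0.34), which NK cells also use, did not pass the size rule in either library.

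KO C1q cells were then set against wild-type C1q cells. By the same size rule, 196 of 1664 genes (11.8%) were higher in KO cells and 74 (4.45%) lower, and the median log2 ratio of all 1664 was 0.20. The shares of 11.8% and 4.45% are the background for the list counts below. This split changed with the cells and the total used. Without cells that held epithelial markers, 89 genes were higher and 48 lower of 1147. With a total that leaves out saliva protein, mitochondrial, ribosomal protein and haemoglobin genes, 128 were higher and 115 lower, and the median of all genes moved from 0.20 to −0.06. Of the calls, 72.6% were thus higher as deposited, 65.0% without those cells and 52.7% with the reduced total. Genes called below passed the size rule in the same direction without epithelial-marker cells too, unless said otherwise. For some, the log2 ratio between the epithelial cells of both libraries (1365 wild-type and 1606 KO cells) is given as well. Of 90 genes that the rule for naming genes chose and that passed the size rule, 19 passed it in the same direction in all 15 sets of choices that give a call, and the log2 ratio of 4 changed sign under at least 1. Among these 15, the sets with other S100a8/9 limits hold the same cells and so could not change a call.

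**Figure D2:**
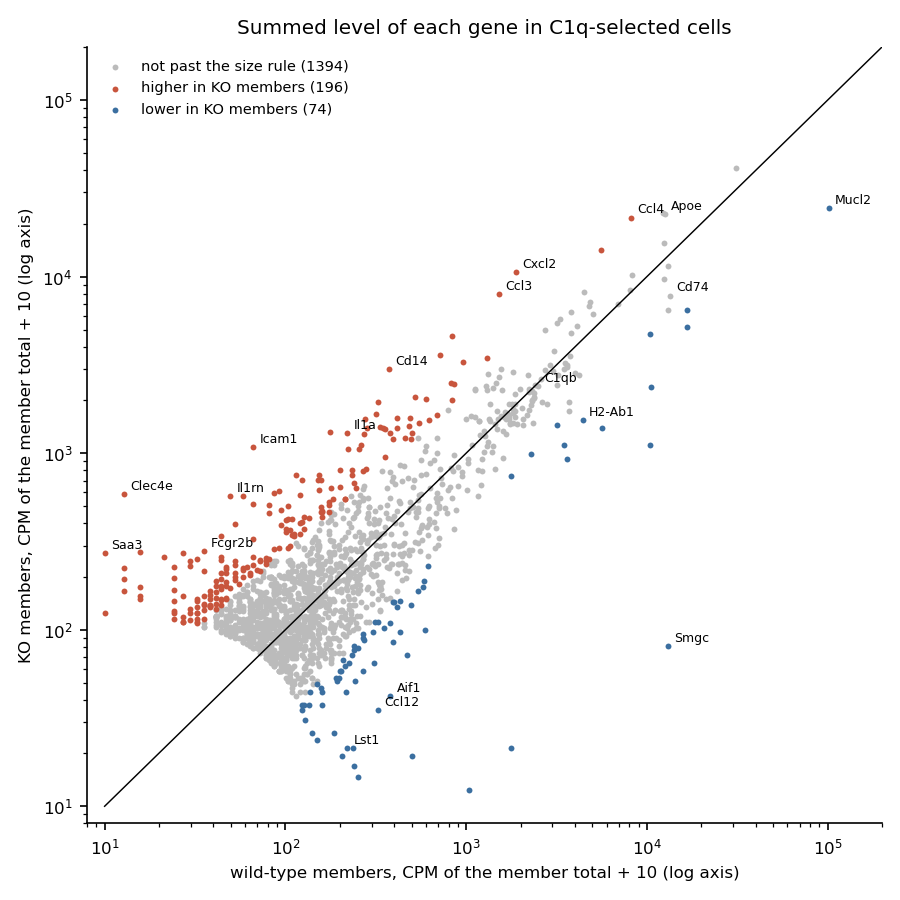
Level of each of the 1664 genes with at least 50 UMIs in C1q cells, wild-type against KO, as CPM of the summed C1q profile with 10 added, both axes logarithmic. Red points are the 196 genes higher in KO cells past the size rule, blue points the 74 lower ones, and the line marks equal levels: Clec4e and Icam1 lie far above it, Smgc, Lst1 and Aif1 below it, and C1qb close to it.

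Among the gene lists, that of chemokines and cytokines held the largest number of genes higher in KO C1q cells, though not the largest share. Of the 25 genes on this list 19 had enough UMIs, of which 11 were higher and 1, Ccl12, lower, with a median log2 ratio of 1.5 against 0.20 for all genes. Without epithelial-marker cells 8 were higher and 1 lower, with a median of 0.84 against 0.21. The size of the difference depended on the C1q limit. The list's summed log2 ratio was 1.75, and it was 2.62 with cells of 2 C1q UMIs admitted and 0.89 with at least 10. With at least 10 and no epithelial-marker cells it was 0.69. Cxcl2, which attracts neutrophils, had 661 UMIs in 47 of 95 wild-type cells (1872 CPM) and 4644 UMIs in 196 of 236 KO cells (10644 CPM), a ratio of 5.69 (5.24 to 6.18). A KO cell held a median of 9.5 Cxcl2 UMIs (0 to 182) and a wild-type cell 0 (0 to 64), so the libraries overlapped but the middle of the KO cells lay above the upper quartile of the wild-type cells, which was 9. Its log2 ratio was 2.50 in all C1q cells, 1.69 without epithelial-marker cells and 0.48 in epithelial cells.

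Other ligands were higher as well. Ccl3 had 533 wild-type and 3488 KO UMIs, a ratio of 5.30 (4.83 to 5.81), and Tnf had 75 and 454, a ratio of 4.90 (3.83 to 6.34). Il1a, interleukin 1 alpha, had 74 and 563 UMIs, a ratio of 6.16 (4.83 to 7.96). All 3 passed without epithelial-marker cells too, with log2 ratios of 1.62, 1.60 and 1.80. None of the 3 passed with at least 10 C1q UMIs and no epithelial-marker cells. Il1b had 167 and 617 UMIs, a ratio of 2.99 (2.52 to 3.57). For Ccl4, with 2870 and 9436, the ratio was 2.66 (2.55 to 2.78). Neither Il1b (log2 0.99) nor Ccl4 (0.79) passed without those cells. Il1rn, the natural inhibitor of interleukin 1, had 14 UMIs in 9 wild-type cells and 244 in 99 KO cells, a ratio of 14.1 (8.25 to 26.2), and Nlrp3, the sensor of the inflammasome that activates interleukin 1, had 30 and 203, a ratio of 5.48 (3.72 to 8.33). Cxcl1, a second neutrophil attractant that epithelial cells also make, had 94 and 676, a ratio of 5.82 (4.69 to 7.30). Ccl12, a monocyte attractant, went the other way, from 112 UMIs in 24 wild-type cells to 11 UMIs in 6 KO cells, a level 12.6-fold lower (6.77 to 25.9). Without epithelial-marker cells the log2 ratios of Il1rn, Nlrp3, Cxcl1 and Ccl12 were 2.74, 1.71, 2.50 and −3.56. Of these, only Nlrp3 lost its call with at least 10 C1q UMIs.

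Cxcl2, Icam1 and Clec4e were higher in KO cells in all 15 sets of choices, as were others such as Cd14, Cxcl1 and Il1rn. The promoter windows of Cxcl2, Icam1 and Clec4e were picked by hand as examples. They are RefSeq windows of GRCm38.p6, from 250 bases before the annotated start to 50 after it, and capitals mark matches to GGANNTTCC, a short form of the sites that NF-kB proteins bind, sought on both strands. The pattern was chosen with these windows in view. Cxcl2 (chr5:90903649-90903948, plus strand) has 1 match beginning 96 bases before the start, Icam1 (chr9:21015690-21015989, plus strand) 1 match beginning 153 bases before it, and Clec4e (chr6:123289822-123290121, minus strand) has none.
Cxcl2: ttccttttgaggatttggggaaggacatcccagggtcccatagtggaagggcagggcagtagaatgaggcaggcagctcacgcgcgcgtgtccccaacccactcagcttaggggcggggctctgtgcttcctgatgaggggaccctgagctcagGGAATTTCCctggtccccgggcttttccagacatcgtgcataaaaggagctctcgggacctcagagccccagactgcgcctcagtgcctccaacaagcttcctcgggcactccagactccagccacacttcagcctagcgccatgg
Icam1: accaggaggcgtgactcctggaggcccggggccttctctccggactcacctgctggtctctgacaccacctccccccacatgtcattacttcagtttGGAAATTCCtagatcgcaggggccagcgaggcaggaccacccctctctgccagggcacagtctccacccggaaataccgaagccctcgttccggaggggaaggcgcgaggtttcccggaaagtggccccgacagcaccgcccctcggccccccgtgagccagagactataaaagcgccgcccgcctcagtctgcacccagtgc
Clec4e: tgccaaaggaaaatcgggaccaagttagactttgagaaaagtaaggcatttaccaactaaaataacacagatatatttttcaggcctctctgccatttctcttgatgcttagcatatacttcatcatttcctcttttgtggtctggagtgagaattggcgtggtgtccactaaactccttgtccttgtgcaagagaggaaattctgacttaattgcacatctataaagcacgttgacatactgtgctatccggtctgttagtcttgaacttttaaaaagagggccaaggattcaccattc
The windows of a whole chromosome were left out of the counts, so a gene counted as without a window can have one. A match was present in 1399 of 32851 promoter windows used (4.26%) and, by gene, in 1313 of 27025 genes with a window (4.86%). Of the genes with enough UMIs in C1q cells, 1307 of 1664 had a window and 99 of these (7.57%) a match. The share was 23 of 160 (14.4%) for the genes higher in KO cells and 2 of 61 (3.28%) for the lower ones. Without Cxcl2 and Icam1, which prompted the pattern, it was 21 of 158 (13.3%) for the higher genes and 97 of 1305 (7.43%) for all with enough UMIs. The pattern was chosen with genes higher in KO cells in view. Leaving out Cxcl2 and Icam1 does not make the shares independent of that choice. The shares are counts of letters, and no binding was measured.

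Several receptors that sense microbes and damage were higher in KO C1q cells. Of 18 pattern recognition genes 5 had enough UMIs, and 4 were higher and 0 lower, and 2 of 4 were higher without epithelial-marker cells. Clec4e, or Mincle, a lectin receptor for mycobacterial glycolipids and for material from dead cells, had 1 UMI in the wild-type cells and 252 UMIs in 98 of 236 KO cells, a ratio of 204 (36.3 to 8088). After thinning, Clec4e was detected in 0 of 95 wild-type cells, which allows a share of up to 3.16% by a limit of 3 counts and 3.81% by the exact binomial bound, and in 81 of 236 KO cells (34.3%, 28.3 to 40.8%), and in 0.249% of KO epithelial cells. The log2 ratio was 5.52, and 5.29 without epithelial-marker cells. Cd14, the co-receptor for bacterial lipopolysaccharide, had 129 UMIs in 47 wild-type cells and 1306 in 204 KO cells, a ratio of 8.19 (6.83 to 9.90), with log2 ratios of 2.26 without epithelial-marker cells and 0.45 in epithelial cells. Its thinned shares were 30.5% (21.5 to 40.8%) and 78.8% (73.0 to 83.8%). Tlr2 (79 and 323 UMIs) and the adaptor Myd88 (7 and 45 UMIs) were higher too, with ratios of 3.31 (2.58 to 4.29) and 5.20 (2.33 to 13.7), and neither passed without epithelial-marker cells.

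Some receptors for chemokines, cytokines and complement fragments were higher too. Of 16 cytokine and chemokine receptors 11 had enough UMIs, and 6 were higher and 0 lower. Ccr1, a receptor for Ccl3, had 1 UMI in the wild-type and 93 UMIs in 56 KO cells, a ratio of 75.3 (13.2 to 3005). Ccrl2 (52 and 302 UMIs), Tnfrsf1b (12 and 87), Il4ra (10 and 68), Il10ra (9 and 57) and Ifngr1 (19 and 85) were higher with ratios from 3.62 to 5.87. Without epithelial-marker cells only Ccr1 (log2 3.78) and Ccrl2 (1.51) passed. The decoy receptor Il1r2, which binds interleukin 1 without signalling, had 2 UMIs in the wild-type and 72 UMIs in 53 KO cells, a ratio of 29.1 (7.78 to 245), and a log2 ratio of 3.57 without epithelial-marker cells. Of 16 complement genes 2 had enough UMIs and both were higher: C3ar1 (33 and 216 UMIs, ratio 5.30, 3.66 to 7.89) and C5ar1 (39 and 248 UMIs, ratio 5.15, 3.66 to 7.41), the receptors for the fragments C3a and C5a. Both passed without epithelial-marker cells, at log2 1.82 and 1.69.

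Receptors for antibody and for cell contact gave the same direction for some genes and no call for others. Of 8 Fc receptor genes 4 had enough UMIs, and Fcgr2b, the inhibitory receptor for IgG, was higher, with 9 UMIs in 8 wild-type and 118 UMIs in 89 KO cells, a ratio of 10.6 (5.40 to 23.8), and a log2 ratio of 2.60 without epithelial-marker cells. Fcer1g (415 and 658 UMIs, ratio 1.28, 1.13 to 1.46) and Fcgr3 (59 and 137 UMIs, ratio 1.88, 1.38 to 2.60) did not pass. Icam1, an adhesion molecule that binds leukocyte integrins, had 20 UMIs in 17 wild-type cells and 466 in 144 KO cells, a ratio of 18.9 (12.1 to 31.2). Epithelial cells held Icam1 too, and there the log2 ratio was −0.76, opposite in sign to 4.02 in C1q cells and to 3.92 in those without epithelial markers. The thinned share of Icam1 was 8.42% (3.71 to 15.9%) in wild-type C1q cells, against 14.5% of epithelial cells of that library, and 48.7% (42.2 to 55.3%) in KO C1q cells against 6.72% of KO epithelial cells. Of 19 engulfment genes 6 had enough UMIs and 0 passed in either direction, with a median log2 ratio of 0.17. Of all 1664 genes 11.8% were higher and 4.45% lower, so 0 of 6 does not set this list apart. Trem2, a receptor for lipids and apoptotic cells, had 29 and 71 UMIs (ratio 1.98, 1.27 to 3.17), and Axl, which binds bridged phosphatidylserine, 39 and 62 (1.29, 0.85 to 1.97).

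**Figure D3:**
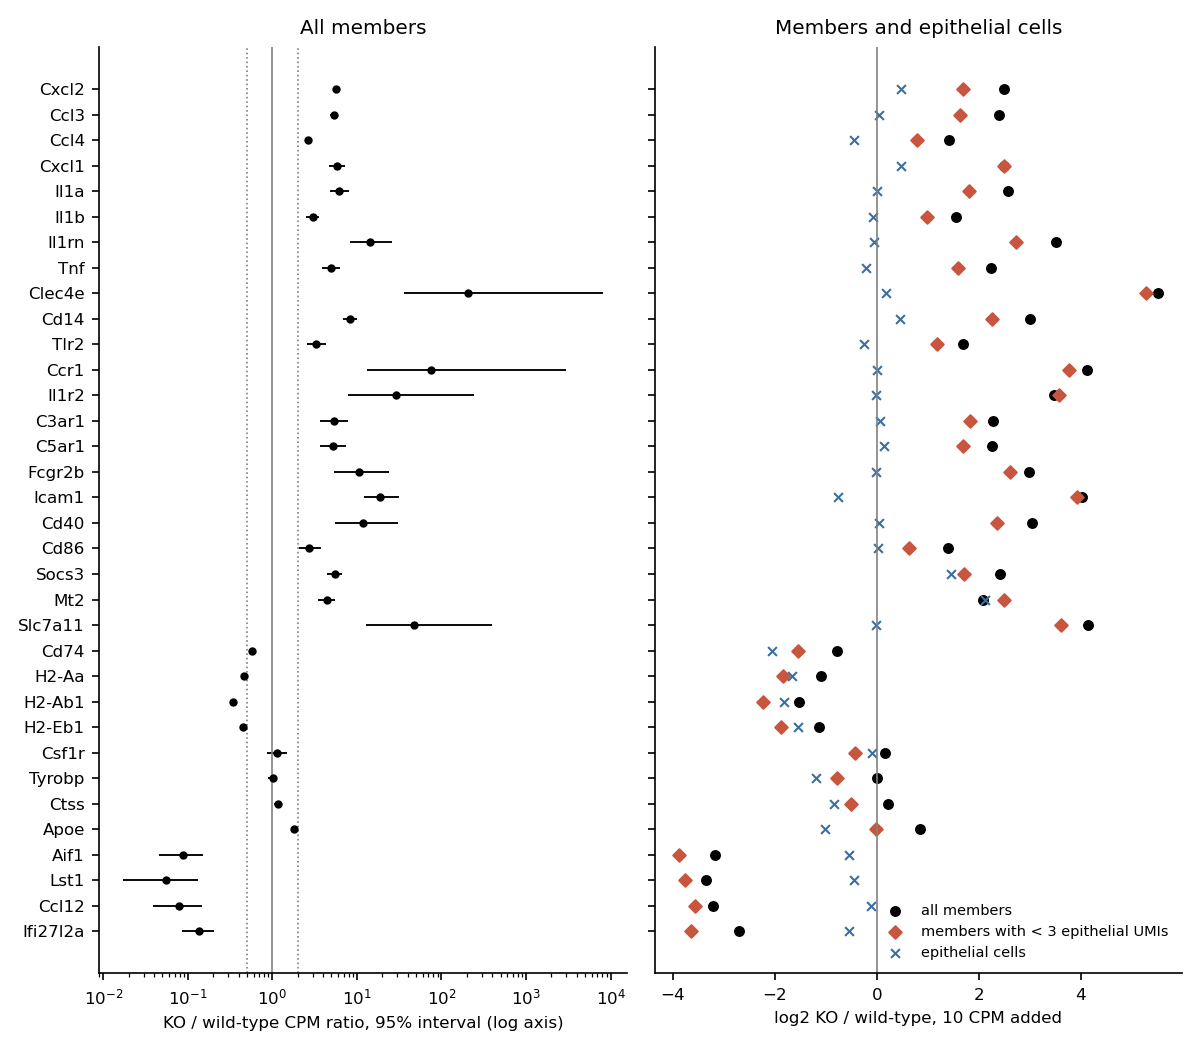
Left, KO over wild-type CPM ratio of selected genes in C1q cells on a log axis, with 95% counting intervals as bars and dotted lines at 2-fold either way. Right, log2 ratio with 10 CPM added for all C1q cells (circles), for those with fewer than 3 epithelial UMIs (diamonds) and for epithelial cells (crosses): Clec4e, Il1rn and Icam1 are far right only in C1q cells, whereas class II genes are left of 0 in all 3 sets.

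Of the genes for MHC class II antigen presentation, 2 that encode class II chains were lower in KO C1q cells. Of 12 genes on the list 8 had enough UMIs, of which 2 were lower, 2 higher and 4 not past the size rule. Lower were H2-Ab1 (1560 UMIs in 87 wild-type cells and 668 in 171 KO cells, 2.89-fold lower, 2.63 to 3.16) and H2-Eb1 (1123 and 627 UMIs, 2.21-fold lower, 2.0 to 2.44). H2-Aa (1304 and 751 UMIs, ratio 0.47, 0.43 to 0.51) and Cd74 (4740 and 3404 UMIs, ratio 0.58, 0.56 to 0.61) did not pass. The list had a median log2 ratio of −1.12. Without epithelial-marker cells 6 of 8 genes were lower and 1 higher, with a median of −1.86, and H2-Aa (−1.84) and Cd74 (−1.54) passed. With cells of 2 C1q UMIs admitted, the list's summed log2 ratio moved from −0.93 to −0.09, neither H2-Ab1 (−0.70) nor H2-Eb1 (−0.32) passed, and Cd74 stood at 0.06. A wild-type C1q cell held a median of 46 Cd74 UMIs (0 to 179) and a KO cell 11.5 (0 to 63), or 17 and 7 after thinning. The class II genes were also lower in KO epithelial cells, with log2 ratios from −2.05 for Cd74 to −1.54 for H2-Eb1, at levels far below those of C1q cells: the list summed to 239 and 36.4 CPM in epithelial cells against 25400 and 13369 CPM in C1q cells. The part of free RNA in the epithelial values was not tested. The costimulatory genes Cd40 (7 and 103 UMIs, ratio 11.9, 5.58 to 30.4) and Cd86 (58 and 197 UMIs, ratio 2.75, 2.04 to 3.75) were the 2 genes of the list that were higher, and only Cd40 passed without epithelial-marker cells (log2 2.35). Of 6 class I genes with enough UMIs, H2-Q7 was higher (9 and 89 UMIs, ratio 8.0, 4.03 to 18.1) and Psmb8, a subunit of the immunoproteasome, lower (92 and 35 UMIs, 3.25-fold lower, 2.18 to 4.94).

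Aif1, Lst1 and Ifi27l2a were lower in KO C1q cells. Aif1, which encodes the actin-binding protein IBA1, had 131 UMIs in 57 of 95 wild-type cells and 14 UMIs in 14 of 236 KO cells, a level 11.6-fold lower (6.65 to 21.7). After thinning it was found in 28.4% (19.6 to 38.6%) and 2.97% (1.20 to 6.02%) of cells, against 0.440% and 0% of epithelial cells. Lst1, a small leukocyte membrane protein, had 74 UMIs in 45 cells and 5 UMIs in 4 cells, a level 18.3-fold lower (7.49 to 58.0). Ifi27l2a, an interferon-induced gene, had 163 and 27 UMIs, a level 7.46-fold lower (4.94 to 11.7). Without epithelial-marker cells the log2 ratios of Aif1, Lst1 and Ifi27l2a were −3.89, −3.77 and −3.65. Cx3cr1, the fractalkine receptor of resident macrophages, had 38 UMIs in all and so too few for a call. It was found in 25 wild-type and 4 KO cells, and it is named here after its values were seen. Mrc1, the mannose receptor of perivascular macrophages, had 6 and 13 UMIs in 5 and 10 cells. Only 1 wild-type cell and 0 KO cells held both Cx3cr1 and Mrc1.

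**Figure D4:**
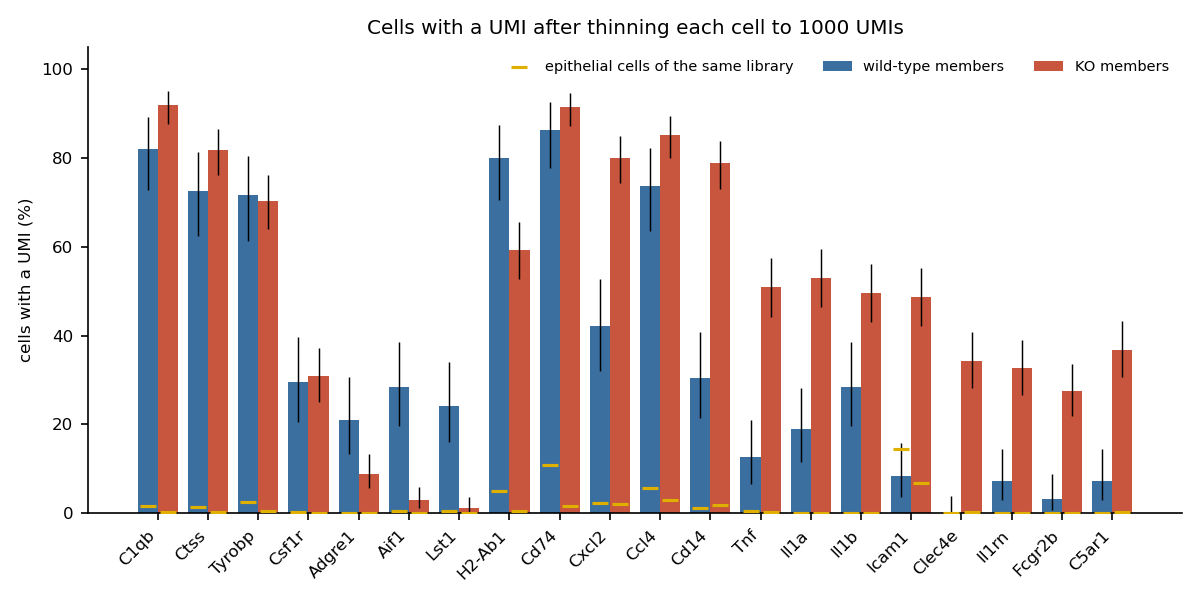
Percent of C1q cells with at least 1 UMI of each gene after thinning every cell to 1000 UMIs, wild-type in blue and KO in red, with 95% exact binomial intervals as bars. Yellow dashes give the same share in epithelial cells of that library: Aif1 and Lst1 are found mostly in wild-type C1q cells, and Clec4e, Il1rn and Cd14 mostly in KO cells.

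Heat shock, immediate early and metal-binding genes were higher in part. Of 27 immediate early and heat shock genes 24 had enough UMIs, of which 5 were higher and 0 lower, and the 5 all passed without epithelial-marker cells: Hspa1a, an inducible HSP70 (1970 and 6146 UMIs, ratio 2.53, 2.40 to 2.66), Socs3 (108 and 728 UMIs, ratio 5.46, 4.45 to 6.74), Klf6 (300 and 1073 UMIs, ratio 2.90, 2.55 to 3.30), Dusp1 and Gadd45b. Of the 15 sets of choices, the call held in 14 for Socs3 and Klf6, but only in 9 for Hspa1a and Gadd45b and in 8 for Dusp1. In epithelial cells Socs3 was higher as well (log2 1.46). Fos, an immediate early gene, had 836 and 951 UMIs (ratio 0.92, 0.84 to 1.01) and did not pass. The summed level of the whole list had a ratio of 1.895 (1.852 to 1.94). The metallothioneins Mt2 (89 and 481 UMIs, ratio 4.37, 3.48 to 5.55) and Mt1 (457 and 1497 UMIs, ratio 2.65, 2.39 to 2.95) were higher in C1q cells, and in epithelial cells by 2.12 and 1.96 on the log2 scale. Without epithelial-marker cells Mt2 passed (log2 2.49) and Mt1 did not (0.97). The cell cycle inhibitor Cdkn1a had 93 and 559 UMIs (ratio 4.87, 3.90 to 6.13), with 0.30 on the log2 scale in epithelial cells.

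Genes for oxidant defence, iron and lipid turnover gave a few calls each. Slc7a11, the cystine transporter that supplies glutathione synthesis, had 2 UMIs in the wild-type and 116 UMIs in 41 KO cells, a ratio of 46.9 (12.7 to 392), and Srxn1, sulfiredoxin, 4 and 108 UMIs (21.9, 8.29 to 81.7). Of 7 iron and haem genes with enough UMIs, Hmox1, haem oxygenase 1 (122 and 595 UMIs, ratio 3.95, 3.24 to 4.84), and Nfe2l2, the transcription factor NRF2 (32 and 152 UMIs, ratio 3.85, 2.61 to 5.82), were higher. Both were also higher in KO epithelial cells, at log2 1.39 and 1.48. Without epithelial-marker cells Hmox1 passed (1.37) and Nfe2l2 did not (1.47). Of 9 lipid genes Lgals3 (119 and 603 UMIs, ratio 4.10, 3.36 to 5.04) and the lipid droplet gene Plin2 (22 and 104 UMIs, ratio 3.83, 2.40 to 6.37) were higher, and Apoe (4454 and 9846 UMIs, ratio 1.79, 1.73 to 1.85) did not pass. Plin2 missed the rule without epithelial-marker cells (1.22), and Lgals3 (1.34) was also higher in KO epithelial cells (1.55). Pla2g7, which inactivates platelet-activating factor, had 6 UMIs in 5 and 114 UMIs in 80 cells, a ratio of 15.4 (6.85 to 42.8). Of 6 growth factor and matrix genes the proteases Mmp12 (30 and 166 UMIs, ratio 4.48, 3.02 to 6.85), Mmp13 (12 and 104 UMIs, ratio 7.02, 3.85 to 14.0) and Mmp14 (15 and 79 UMIs, ratio 4.26, 2.44 to 7.97) were higher, and the inhibitor Timp2 (41 and 12 UMIs) was lower by 4.22-fold (2.18 to 8.82). Without epithelial-marker cells only Mmp13 (log2 1.92) passed of 5 with enough UMIs, and Mmp12 (1.29), Mmp14 (1.58) and Timp2 (−1.65) did not.

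Some of the largest ratios rested on few cells. Saa3, an acute-phase protein that macrophages make, had 0 wild-type UMIs and 114 UMIs in 13 KO cells, at least 30.8-fold higher against a floor of 3 counts, and 1 cell held 43 of them. Cxcl13, a B cell attractant, had 0 and 50 UMIs, at least 13.5-fold higher, of which 49 lay in 1 of 2 cells. In contrast, the 80 UMIs of Dpep2, a dipeptidase that acts on leukotrienes, were spread over 63 KO cells with at most 3 each, against 1 UMI in the wild-type (ratio 64.8, 11.3 to 2589). Jaml (1 and 68 UMIs), Napsa (2 and 61), Hcar2 (2 and 63) and Cxcl3 (5 and 94) were also among the 15 highest, with ratios from 15.2 to 55.0.

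Other lists gave few calls, and several of these were lost without epithelial-marker cells. Of 24 lysosome genes 22 had enough UMIs, and Cd63, Ctsl and Lgmn were higher and 0 lower, with a median log2 ratio of 0.48. Without epithelial-marker cells Ctsl was higher, Cd63 and Lgmn missed the rule, and Hexa, Lyz2 and Cst3 were lower, with a median of −0.16. The transcription regulators Zeb2 (1.82) and Id2 (1.38) were higher, and without those cells Zeb2 (1.06) and Id2 (1.26) missed the size rule. Of 8 interferon response genes Ifi204 was higher and Ifi27l2a lower. Without those cells Ifi204 (0.77) did not pass, and Ifi27l2a and Bst2 (−1.60) were lower. Of 8 glycolysis genes Hk2 was higher, but it missed the rule without those cells (1.67). All 4 genes of TGF-beta and activin signalling with enough UMIs missed the size rule with and without those cells. Of the cell cycle genes Hmgb2 and Tubb5 had enough UMIs and neither passed, but Tubb5 (−1.49) was lower without those cells (−2.41), and its lack of a call held in only 4 of 15 sets of choices. Mki67, a marker of dividing cells, was found in 3 wild-type and 6 KO cells.

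Saliva protein and other genes of gland epithelium were among the lower ones. Of 8 saliva protein genes with enough UMIs 6 were lower in KO C1q cells and 0 higher, and 4 of 7 were lower without epithelial-marker cells. Smgc, a submandibular gland mucin-like protein, had 4616 UMIs in 78 wild-type cells, of which 1605 lay in 1 cell, and 31 UMIs in 29 KO cells, a level 184-fold lower (129 to 271). In epithelial cells the log2 ratio of Smgc was −2.97, and 82.9% of wild-type and 19.3% of KO epithelial cells held it, against 82.1% and 12.3% of C1q cells. Without epithelial-marker cells the log2 ratio of Smgc in C1q cells moved from −7.33 to −2.71. Prol1 (3672 and 483 UMIs, 9.39-fold lower, 8.54 to 10.4) and the small heat shock gene Cryab (173 and 4 UMIs, 53.4-fold lower, 20.5 to 198) did not pass without epithelial-marker cells, at log2 −0.72 and −1.69. Nor did Dcn, Ly6d, G0s2, Slc12a2, Cat, Cyp2f2, Nfib and Klk1b22, which complete the 15 lowest genes together with Aif1, Lst1, Ccl12 and Ifi27l2a.

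Among themselves, C1q cells varied widely within each library. After thinning, a wild-type cell held a median of 15 UMIs of the chemokine and cytokine list (0 to 131) and a KO cell 47 (0 to 206). For class II presentation the medians were 27 (0 to 146) and 12 (0 to 62), for immediate early and heat shock genes 30 and 50, and for lysosome genes 19 and 19. The ranges overlapped for every list. Of 98 KO cells with Clec4e, 91 also held Cxcl2 and 68 Il1b, and of 144 with Icam1, 138 held Cxcl2, where 196 of all 236 KO cells held Cxcl2 and 132 Il1b. Of the cells with Cxcl2, 189 of 196 in the KO and 45 of 47 in the wild-type library held Cd74, as did 226 of all 236 and 86 of all 95 C1q cells. Aif1 and Clec4e were found together in 8 KO cells, where 14 held Aif1 and 98 held Clec4e. Deeper cells hold more genes of every kind, so these counts describe the libraries and carry no test.

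**Figure D5:**
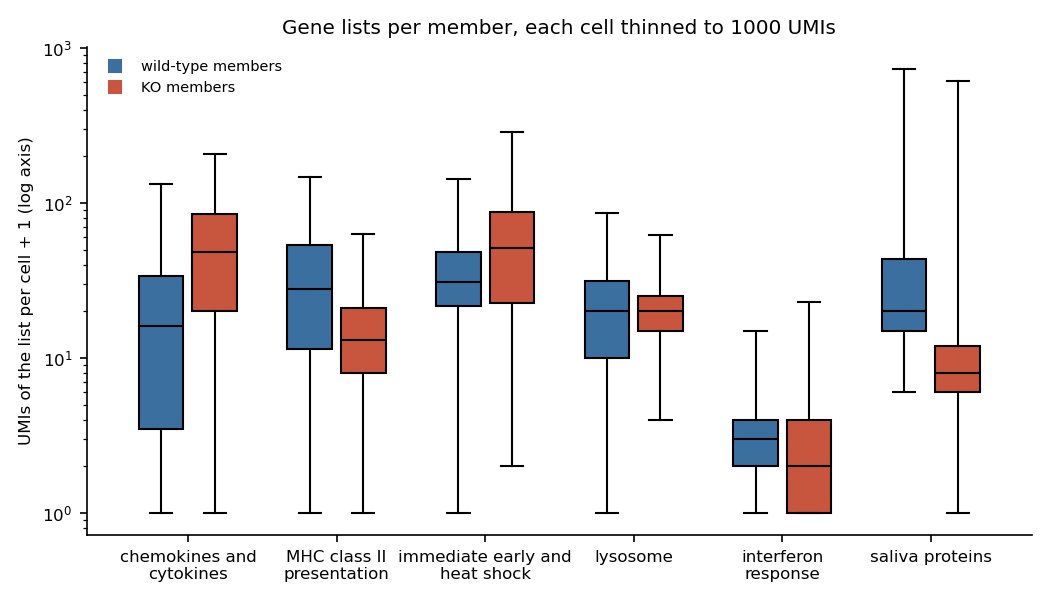
UMIs of 6 gene lists per C1q cell after thinning each cell to 1000 UMIs, plus 1, on a log axis. Boxes span the quartiles with the median as a line, whiskers the full range, wild-type in blue and KO in red: the medians are 15 and 47 for chemokines and cytokines, 27 and 12 for class II presentation and 19 in both libraries for lysosome genes.

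Trp63, the targeted gene, had 0 UMIs in the C1q cells of both libraries, which allows a share of up to 3.16% of wild-type and 1.27% of KO cells with a UMI by a limit of 3 counts, and 3.81% and 1.55% by the exact binomial bound. In epithelial cells 8.13% of wild-type and 0.996% of KO cells held a Trp63 UMI, and 2.27% and 0.187% after thinning. The tags come from 3' ends and the deleted part is not stated, so these values do not show whether the deletion took place in a given cell. Fst, which encodes the activin-binding protein follistatin, had 3 UMIs in 2 wild-type C1q cells and 0 in the KO cells.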

How the data were processed

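Single-cell 3' libraries of whole submandibular gland were made from a p63 WildType and a p63 KO mouse, 1 each, per the labels' protocols. The deposited values are the authors' unnormalized UMI counts, 1 row per gene. Software listed in the submitters' processing notes, with no roles, comprises Seurat 3.1.2, bcl2fastq 2.19.1 and Cell Ranger 2.1.0; the genome build is mm10. How the authors selected barcodes is not given in the sources used. Of 27998 genes, 27645 received a GENCODE M21 symbol and 353 kept their identifier.

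Counts were summed over C1q cells per library and scaled to their total (CPM) with Python 3.11.15, numpy 2.4.6 and scipy 1.17.1. Ratios carry exact conditional 95% intervals of 2 Poisson counts, and shares exact binomial (Clopper-Pearson) ones. The size rule asked for at least 50 UMIs over both sides and an interval entirely past 2-fold. Before log2, 10 CPM were added, and a gene at 0 was given a floor of 3 counts. Epithelial cells held at least 3 UMIs of Epcam, Krt7, Krt8, Krt18 and Krt19. Thinning drew 1000 UMIs from each cell once. The size rule was tested on simulated sums drawn as independent Poisson counts. These leave out the uneven spread of UMIs over cells, so they do not show how the rule performs with it.

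Named were the 5 markers, of each of 22 gene lists the 5 most abundant genes and all that passed the size rule, the 15 highest and 15 lowest ratios, the 20 genes highest against other cells, and Trp63 and Fst. Mitochondrial, ribosomal protein, haemoglobin, immunoglobulin, sex-linked and unnamed genes were left out. The cells and lists were chosen with earlier results of these data known. Alternatives varied the C1q and S100a8/9 limits, the barcode filter, the cells, the depth, the scaling (edgeR 4.0.16 TMM factors among others), the UMI minimum and the added CPM. Of the listed genes, 3 were not in the tables used here. The comparison with phagocytes low in C1q and the counts over the macrophage regulator list are not reported here.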

Additional observations from a re-analysis of the deposited data

Results flagged for a closer look

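For 3 genes, C1q cells differed from the other kept cells past the size rule in opposite directions in the 2 libraries, and that difference was not tested. Jchain, which joins the chains of secreted antibody, had a log2 ratio of 3.16 in the wild-type library and -3.21 in the KO library; it had 365 UMIs in wild-type C1q cells, 363 of them in 1 cell. 2310057J18Rik, an uncharacterised gene, had log2 ratios of 2.05 and -3.67, with 528 of its 622 wild-type UMIs in 1 cell and 5 UMIs in KO C1q cells. Rnase4, a secreted ribonuclease, had 1.72 and -2.06. Its 35 wild-type UMIs were spread over 24 cells with at most 3 each, and its level in the other kept cells was 23.2 CPM in the wild-type and 88.7 CPM in the KO library.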

How the results depend on the processing

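No paired analysis was possible because each genotype had 1 library and the labels carry no replicate numbers. Leaving out a library was not possible for the same reason. Weighting every cell equally gives log2 ratios but no interval, and so no count of calls. Limits of the C1q count: at 2 UMIs the wild-type share was 7.88%, 366 genes were higher in KO C1q cells and 7 were lower than in other cells; at 5 UMIs the KO share was 8.21%, 95 genes were higher, and the log2 ratios of Mucl2 (1.49), Pip (0.66), Scgb2b27 (0.95) and the summed lysosome list (-0.32) changed sign; at 10 UMIs the shares were 4.45% and 4.29%, with 56 higher, 46 lower, 63 lower than in other cells and lysosome at -0.22. The KO share was 5.21% with no barcode filter and 13.5% with 500 genes and 10% mitochondrial UMIs. With a Csf1r or Adgre1 UMI the shares were 3.91% and 4.99%, with 85 higher, 46 lower and lysosome at -0.17. Without epithelial-marker cells the wild-type share was 3.25%, with 89 higher, 48 lower, 140 lower than in other cells and lysosome at -0.51. After thinning, cells with at least 1 C1q UMI had shares of 8.72% and 11.1%. Thinned counts of the original C1q cells gave 80 higher, 46 lower and lysosome at -0.13. The reduced total gave 128 higher, 115 lower and lysosome at -0.09. A minimum of 20, 100 or no UMIs gave 130, 48 or 188 lower genes and 300, 123 or 446 higher than in other cells. Chosen after seeing the data were 3 more settings. Without cells over 10000 UMIs 135 genes were higher, 90 lower and lysosome stood at -0.09. With 10 C1q UMIs and no epithelial-marker cells the shares were 3.01% and 3.92%, with 37 higher, 35 lower, 125 lower than in other cells, Mmp13 at -0.33 and lysosome at -0.47. With C1q also at least 0.2% of UMIs the wild-type share was 4.57%, with 99 higher, 63 lower than in other cells and lysosome at -0.31. The cause of these shifts was not tested. The limits on S100a8/9 changed no cell.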
